A study of Homo sapiens with 8 samples.

Results

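The mRNA of 10 apoptosis regulators of the BCL2 family was followed in 2 human colorectal cancer cell lines after depletion of peroxiredoxin II (PrxII, gene PRDX2), a cytosolic enzyme that removes hydrogen peroxide. The members were taken by gene symbol, BCL2, BCL2L1, MCL1, BAX, BAK1, BID, BCL2L11, BIK, BAD and PMAIP1, and are 10 of the 25192 genes listed. HT29 and SW480 are established epithelial lines that both carry a truncated APC tumour suppressor, and they were grown in different media. Each line was transfected for 36 h with control siRNA (siCon) or with siRNA against PRDX2 (siPrdx2), in duplicate, giving 2 libraries in each of 4 groups. The sources used here do not say which siRNA sequence was used for sequencing, nor whether the duplicates were separate cultures, so the p-values measure only the spread between these libraries, which may be technical.

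Proteins of the BCL2 family decide whether the outer membrane of the mitochondrion is opened, the step that releases cytochrome c and starts the caspases. Survival proteins (BCL2, BCL-XL from BCL2L1, MCL1) hold the pore-forming effectors BAX and BAK1 in check. BH3-only proteins (BID, BIM from BCL2L11, BIK, BAD and NOXA from PMAIP1) use a short helix, the BH3 segment, to occupy the groove of the survival proteins, and some of them also activate the effectors. In colorectal cancer cells BCL-XL and MCL1 are well known survival factors.

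The BH3 segment is what the members share in sequence. Its core was searched as leucine, any 3 residues, glycine or serine, then aspartate. The canonical coding sequence held this pattern once in 9 members and at 2 places in BID, codons 25 to 30 and 90 to 95. A match to the pattern alone does not make a BH3 segment, and in BID only that at codons 90 to 95 carries the glycine. The segments of the 3 members called in either line (BCL2L1, MCL1 and PMAIP1), that of BIK, which differed most between the lines, and that of BAD for contrast are shown as coding sequence of GRCh37, 5′ to 3′, with the 6 core codons in capitals. The segment of BCL2L1 lies at chr20:30309710-30309781 on the minus strand, in exon 2 of 3, and that of MCL1 at chr1:150551326-150551397 on the minus strand, in exon 1 of 3. The other 3 cross an intron and are printed spliced. They lie at chr18:57567467-57569949 on the plus strand for PMAIP1 (exons 1 and 2 of 2), at chr22:43520182-43523766 on the plus strand for BIK (exons 2 and 3 of 5), and at chr11:64037804-64039150 on the minus strand for BAD (exons 3 and 4 of 4).
BCL2L1: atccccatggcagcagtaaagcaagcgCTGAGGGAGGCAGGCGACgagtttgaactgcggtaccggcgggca
MCL1: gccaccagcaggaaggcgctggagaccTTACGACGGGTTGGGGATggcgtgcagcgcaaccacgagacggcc
PMAIP1: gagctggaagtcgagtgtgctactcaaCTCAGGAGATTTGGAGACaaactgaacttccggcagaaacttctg
BIK: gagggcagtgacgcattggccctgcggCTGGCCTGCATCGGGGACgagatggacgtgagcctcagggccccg
BAD: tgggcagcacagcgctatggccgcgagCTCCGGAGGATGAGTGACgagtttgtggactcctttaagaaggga
The core of BAD carries a serine codon where the other printed cores carry a glycine codon. The protein lengths differ widely, from 54 codons in PMAIP1 and 160 in BIK to 350 in MCL1.

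The libraries held between 8857442 and 10164137 expected counts, and a floor of 3 counts equals 0.293 to 0.335 CPM, a count divided by the scaled size of its library. The floor covers counting error only. PRDX2 itself was at 153 and 159 CPM under control siRNA and 85.3 and 85.9 CPM under PRDX2 siRNA in HT29 cells, and at 202 and 238 against 67.2 and 68.3 CPM in SW480 cells. The knockdown was thus visible in every library, and edgeR gave log2 changes of -0.87 for HT29 and -1.70 for SW480. All 10 epithelial and colorectal markers exceeded 1 TPM in HT29 cells and 7 of 10 did so in SW480 cells, where KRT20, CDH17 and CDX1 were low, while of 10 markers of other cell types 3 exceeded 1 TPM in HT29 cells and 5 in SW480 cells. PTPRC of leukocytes and DCN of fibroblasts were at 0, whereas CD68 lay between 12.6 and 27.9 TPM over both lines and, in SW480 cells, COL1A1 reached 9.33, ACTA2 22.5 and DES 12.02 TPM. The part of these markers in the results was not tested. The control duplicates of SW480 cells stood apart. A chi-square test of their counts gave 11.2 per degree of freedom against 1.43 to 2.13 for the other 3 pairs, and their difference followed transcript GC content across genes (Spearman 0.74, against 0.14 to 0.21 in the other pairs). The members did not all shift alike. Between these control libraries BAX and BAD, with 60.8% and 65.8% GC, were 0.43 and 0.39 higher on the log2 scale in replicate 2 than in replicate 1, while PMAIP1 and MCL1, with 36.6% and 45.1% GC, differed by -0.38 and -0.31. BCL2L1 (56.6% GC) differed by -0.04, BAK1 (58.6% GC) by 0.07 and BCL2L11, with nearly the GC content of MCL1 (45.5%), by 0.07.

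The levels of the members, as TPM (a unit that divides by transcript length and library total and lets genes be compared), put the 2 survival genes BCL2L1 and MCL1 and the effector BAX on top in both lines. In control HT29 cells BCL2L1 was at 343 and 362 TPM, MCL1 at 208 and 203 TPM, and BAX at 201 and 208 TPM, so that BCL2L1 was clearly first and the ranges of MCL1 and BAX overlapped. BID, which caspase 8 cleaves to link death receptors to mitochondria, BAD, which growth factor signals phosphorylate, and the effector BAK1 followed between 41.3 and 55.3 TPM, with overlapping neighbours. The remaining BH3-only genes were lower, PMAIP1 at 15.7 and 15.6 TPM, BCL2L11 at 10.7 and 11.5 TPM and BIK at 3.65 and 4.95 TPM. BCL2, the founding member, stood at the bottom with 0.38 and 0.39 TPM, from 2 counts in each library. In control SW480 cells BCL2L1 was again first at 362 and 347 TPM, and MCL1 (178 and 138 TPM) and BAX (125 and 166 TPM) overlapped. PMAIP1 came next at 97.4 and 74.0 TPM, above BID at 61.2 and 68.9 TPM, and BIK, at 42.1 and 40.4 TPM, lay just above BAK1 at 37.1 and 38.5 TPM. BCL2 was last again at 1.02 and 0.69 TPM. BAK1 has processed pseudogene copies, and how the estimation of counts divided reads among such copies was not examined.

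**Figure D1:**
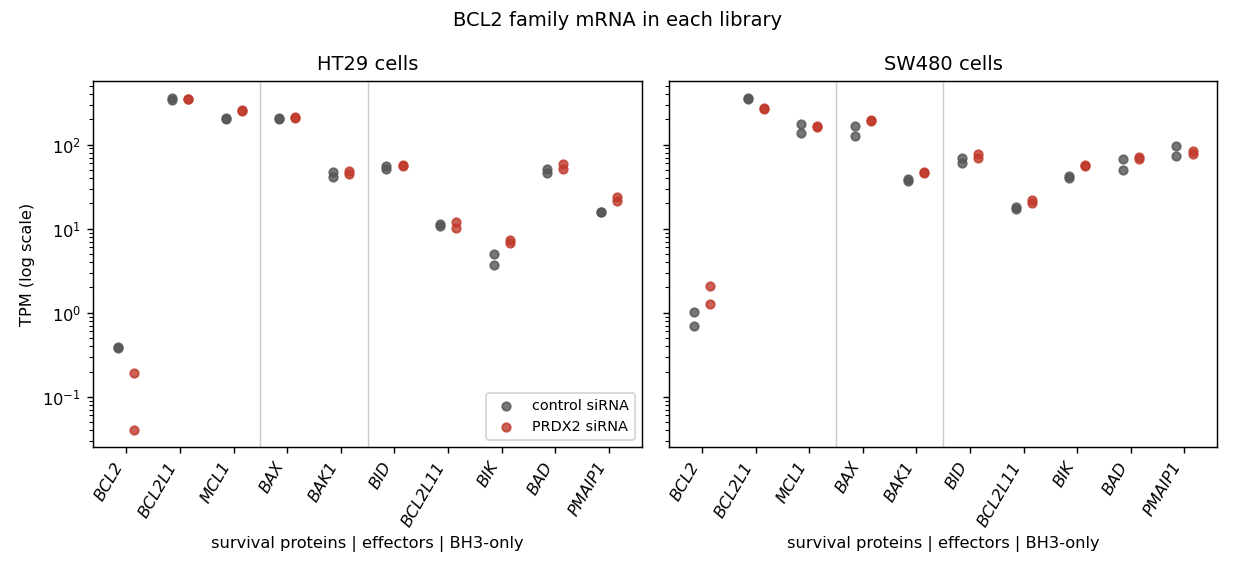
TPM (log axis) of the 10 members in each library of HT29 cells (left) and SW480 cells (right), with control siRNA in grey and PRDX2 siRNA in red. BCL2L1, MCL1 and BAX lie above 100 TPM in all 8 libraries, BCL2 lies at or below 2.1 TPM, and PMAIP1 and BIK lie higher in SW480 cells than in HT29 cells.

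Between the lines under control siRNA, 7 of the 10 members differed, against 67.5% of the 14346 genes tested, so the members' share was near the background of 2 unlike lines. The differences that were largest concerned 2 BH3-only genes and BCL2. BIK, which acts from the endoplasmic reticulum, was at 1.59 and 2.15 CPM in HT29 cells and 16.6 and 16.2 CPM in SW480 cells, a log2 difference of 3.12 (SE 0.23, adjusted p = 5.64e-06). PMAIP1, whose product NOXA binds MCL1 above all, was at 14.3 and 14.2 CPM against 81.0 and 62.1 CPM, 2.32 higher on the log2 scale in SW480 cells (SE 0.17, adjusted p = 4.58e-06). The HT29 and SW480 libraries did not overlap for either gene, and both also differed without either SW480 control library. BCL2 rested on few counts, 31 in the 2 SW480 control libraries against 4 in those of HT29 cells. The ratio after scaling was 7.78 (95% counting interval 2.75 to 30.3). BCL2 met the filter of at least 10 counts only through its SW480 libraries (18 and 13 counts, against 2 and 2 in HT29 cells). Its call among the 7 therefore carries no weight of its own. BCL2L11 was also higher in SW480 cells (log2 difference 0.46, adjusted p = 0.0143), at 35.2 and 36.9 CPM against 24.7 and 27.7 CPM. MCL1 and the effectors went the other way. MCL1 was 0.53 lower in SW480 cells, that is a log2 difference of -0.53 (SE 0.12, adjusted p = 0.00374), BAX of -0.65 (SE 0.15, adjusted p = 0.00485) and BAK1 of -0.35 (adjusted p = 0.0396). BAK1 and BCL2L11 no longer passed when either HT29 control library was left out, and BAK1 did not pass with DESeq2 or a GC offset. BCL2L1, BID and BAD did not pass, with log2 differences of -0.12 (95% interval -0.33 to 0.09), 0.15 (-0.14 to 0.44) and 0.17 (-0.23 to 0.56). Line, medium and any order of preparation cannot be told apart here.

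After PrxII depletion in HT29 cells, 2 of the 9 members tested rose, the survival gene MCL1 and the BH3-only gene PMAIP1. At an unadjusted p under 0.05 there were 4, with BIK higher and BCL2L1 lower. Across all 12961 genes tested 17.6% changed, 7.76% higher and 9.82% lower, so the members were called about as often as genes in general. Their median log2 change was 0.02, against 0.00 over all genes. On log2(TPM + 1) with limma, 1252 genes rose and 548 fell, in place of 1006 and 1273, and MCL1 and PMAIP1 rose on that scale too, as did BIK.

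The survival genes came out differently from each other in HT29 cells. MCL1 was at 404 and 396 CPM under control siRNA and 479.5 and 476 CPM under PRDX2 siRNA. Both depleted libraries lay above both controls by more than the spread within either pair. The log2 change was 0.25 (SE 0.03, 95% interval 0.20 to 0.31, adjusted p = 4.28e-06), 19.3% higher. MCL1 encodes a short-lived protein that shields BAK1 in particular. BCL2L1 was at 415 and 437 CPM against 409 and 400.4 CPM, and its log2 change of -0.08 (95% interval -0.14 to -0.01) did not pass (adjusted p = 0.106). The change of BCL2L1 was -0.12 without control replicate 1 and -0.04 without control replicate 2. With limma on log2(TPM + 1) it was -0.01 (adjusted p = 0.84), and with edgeR and a replicate block it passed (adjusted p = 0.0391). BCL2 had 2, 2, 1 and 1 counts in the 4 HT29 libraries and was not tested, and its ratio of 0.49 had a counting interval of 0.0443 to 3.42.

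The effectors showed no call in HT29 cells. BAX was at 76.8 and 79.3 CPM under control siRNA and 77 and 79.1 CPM under PRDX2 siRNA, so that the pairs interleaved. BAK1 was at 48.8 and 42.7 CPM against 48.1 and 44.9 CPM. Their log2 changes were -0.003 (95% interval -0.12 to 0.11) and 0.02 (-0.14 to 0.18), neither of which passed.

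Among the BH3-only genes of HT29 cells, PMAIP1 was at 14.3 and 14.2 CPM under control siRNA and 18.6 and 20.6 CPM under PRDX2 siRNA. Both depleted libraries were above both controls, with a log2 change of 0.46 (SE 0.12, 95% interval 0.21 to 0.70, adjusted p = 0.0112), 37.1% higher. This call rested on the library of replicate 2 with PRDX2 siRNA, without which the log2 change was 0.38 (adjusted p = 0.0860), and DESeq2 gave an adjusted p of 0.170. BIK had 15 and 20 counts under control siRNA and 30 and 26 under PRDX2 siRNA, or 1.59 and 2.15 against 3.03 and 2.82 CPM. The groups did not overlap, but at this depth the log2 change of 0.64 had a 95% interval from 0.00 to 1.28 and did not pass (adjusted p = 0.164). It passed on log2(TPM + 1) with limma (adjusted p = 0.0413 at its lowest over the 2 pseudocounts). BID, BCL2L11 and BAD overlapped between groups. BID was at 57.1 and 53.6 CPM against 56.7 and 55.7 CPM, BCL2L11 at 24.7 and 27.7 against 27.2 and 23.5 CPM, and BAD at 23.5 and 21.2 against 22.3 and 25.9 CPM. Their log2 changes lay between -0.04 and 0.10.

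The HT29 calls depended on how the spread was estimated. With all 8 libraries fitted together, so that the SW480 control pair entered the spread, neither MCL1 (adjusted p = 0.232) nor PMAIP1 (adjusted p = 0.237) passed, while the log2 changes stayed at their size.

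**Figure D2:**
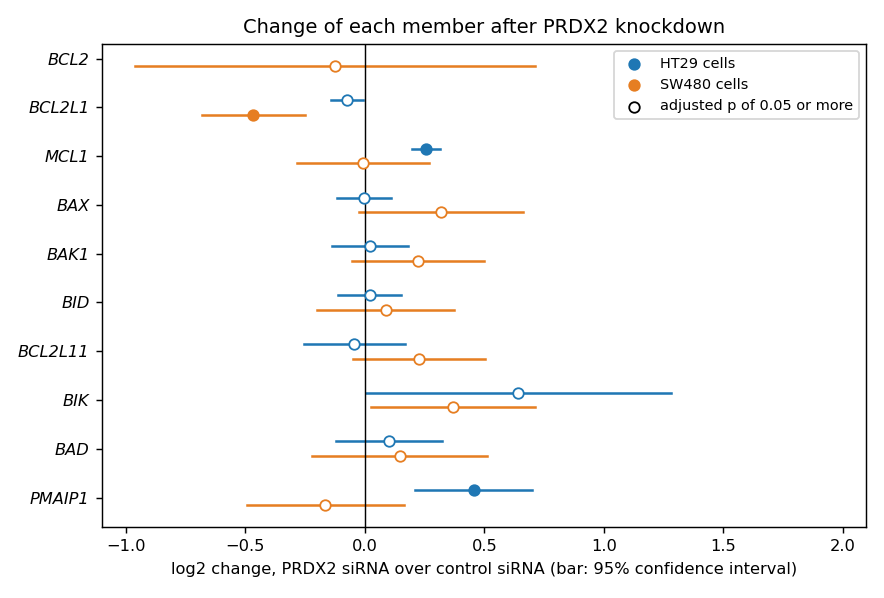
Log2 change of each member (PRDX2 siRNA over control siRNA) with its 95% confidence interval in HT29 cells (blue) and SW480 cells (orange), filled where the adjusted p was under 0.05. MCL1 and PMAIP1 are filled in HT29 cells and BCL2L1 in SW480 cells, and BCL2 is drawn in SW480 cells only because it was not tested in HT29 cells.

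In SW480 cells 1 of the 10 members changed, the survival gene BCL2L1, and it fell. Of the 14112 genes tested 3.30% changed, 1.22% higher and 2.08% lower, and the members' median log2 change was 0.12 against 0.00 over all genes. On log2(TPM + 1) with limma 126 genes rose and 88 fell, in place of 172 and 294, and no member passed. BCL2L1 was at 398 and 386 CPM under control siRNA and 279.9 and 288 CPM under PRDX2 siRNA. Both depleted libraries lay well below both controls, and the gap exceeded the spread within either pair. The log2 change was -0.47 (SE 0.10, 95% interval -0.68 to -0.25, adjusted p = 0.0384), 0.723 of the control level. It kept its sign in all 13 alternatives and lay between -0.62 and -0.38. It did not pass with limma on log2(TPM + 1) (adjusted p = 0.0853), and leaving out either PRDX2 siRNA library, which leaves the control pair to set the spread, gave adjusted p = 0.640.

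The other survival genes of SW480 cells stayed within the spread of the control pair. MCL1 was at 307 and 247 CPM under control siRNA and 272 and 280.5 CPM under PRDX2 siRNA, both depleted libraries lying between the controls. Its log2 change of -0.01 (95% interval -0.28 to 0.27) took its direction from the control library used. Without control replicate 1 the change was 0.16 and without control replicate 2 it was -0.16. BCL2 had 18 and 13 counts against 15 and 16, a log2 change of -0.12 (95% interval -0.96 to 0.71). Its TPM went from 1.02 and 0.69 to 2.1 and 1.27, while its mean count was 15.5 in both groups. The mean transcript length assigned to BCL2 was 4518 and 4436 bases in the control libraries and 1753 and 3010 bases in the depleted ones, and the TPM divides by this length.

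The effectors of SW480 cells were higher in both depleted libraries than in the controls, without a call. BAX was at 42.3 and 57.1 CPM under control siRNA and 63.4 and 60.9 CPM under PRDX2 siRNA, a log2 change of 0.32 (SE 0.15, 95% interval -0.02 to 0.66, adjusted p = 0.231). The control replicate 1 was far below the other 3 libraries. With it left out the change was 0.12, with replicate 2 left out it was 0.55, and with a GC offset it was 0.09. BAK1 was at 35.1 and 36.7 CPM against 41.5 and 42.3 CPM, without overlap, and its log2 change of 0.22 (95% interval -0.06 to 0.50) did not pass either (adjusted p = 0.292). The change of BAK1 was 0.19 without control replicate 1, 0.25 without control replicate 2 and 0.03 with a GC offset.

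The BH3-only genes of SW480 cells gave no call. BIK was at 16.6 and 16.2 CPM under control siRNA and 20.7 and 21.8 CPM under PRDX2 siRNA, without overlap, and its log2 change of 0.37 (95% interval 0.03 to 0.71) had an adjusted p of 0.179. For BIK the log2 change was 0.387 without control replicate 1, 0.344 without control replicate 2 and 0.235 with a GC offset. BIM's gene, BCL2L11, a main mediator of death after loss of growth signals, was at 35.2 and 36.9 CPM against 42.2 and 42.2 CPM, a log2 change of 0.23 (95% interval -0.05 to 0.50, adjusted p = 0.284). It passed with a GC offset (adjusted p = 0.0302), a fit in which 18.8% of all genes tested passed, against 3.30% in the main fit. Its change was 0.19 without control replicate 1 and 0.256 without control replicate 2. PMAIP1 was at 81.0 and 62.1 CPM against 66.6 and 60.8 CPM, overlapping, with a log2 change of -0.17 (95% interval -0.49 to 0.16). BID (57.3 and 65.8 against 68.9 and 61.9 CPM) and BAD (21.7 and 28.6 against 28.3 and 27.3 CPM) overlapped as well.

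**Figure D3:**
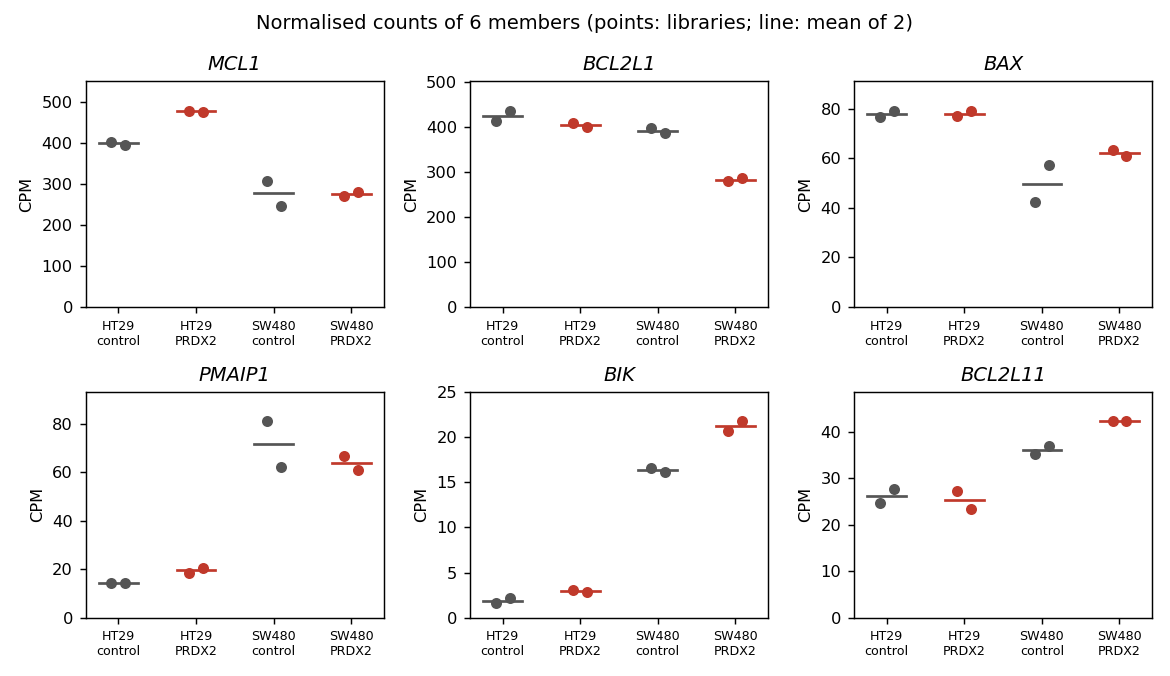
CPM of 6 members in each library, with the mean of each duplicate as a line, by cell line and siRNA (control in grey, PRDX2 in red), each panel on its own axis from 0. MCL1 and PMAIP1 are higher in both depleted HT29 libraries, BCL2L1 is lower in both depleted SW480 libraries (279.9 and 288 CPM), and the SW480 control points of MCL1, BAX and PMAIP1 are far apart.

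Whether an effect differed between the lines was tested in a fit of all 8 libraries, and 0 of the 10 members passed, against 1.12% of 14772 genes. At an unadjusted p under 0.05 there were 2 members, BCL2L1 and PMAIP1, and DESeq2 called 1, BCL2L1. For BCL2L1 the effect in HT29 cells minus that in SW480 cells was 0.39 (SE 0.09, 95% interval 0.20 to 0.59, adjusted p = 0.0629), and DESeq2 gave an adjusted p of 0.0304. For PMAIP1 the difference was 0.62 (SE 0.20, 95% interval 0.18 to 1.06, adjusted p = 0.143). For MCL1 it was 0.26 (95% interval -0.01 to 0.54, adjusted p = 0.286). That MCL1 and PMAIP1 passed in HT29 cells and BCL2L1 in SW480 cells is therefore not shown to be a difference between the lines in the edgeR fit. Without SW480 control replicate 1 and replicate 2 the difference of BCL2L1 was 0.37 and 0.40. Leaving out either library tightened the spread for all genes, so that many more of them passed, and calls under these fits are not read.

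Summed over the members, the make-up of the family's mRNA was nearly constant in HT29 cells and less so in SW480 cells. The survival genes made up 58.9% and 59.9% of the members' TPM in control HT29 cells and 60.1% and 59.1% after depletion. In SW480 cells they made up 55.6% and 50.7% under control siRNA and 43.9% and 45.5% after depletion, so that both depleted libraries were below both controls. The controls also differed between themselves. BAX per BCL2L1, a ratio within each library, was 0.346 and 0.478 in SW480 controls and 0.734 and 0.694 after depletion, and 0.585 and 0.574 against 0.593 and 0.619 in HT29 cells. MCL1 exceeded PMAIP1 by 13.3-fold and 13.0-fold in control HT29 cells and by 12.1-fold and 10.8-fold after depletion, whereas in SW480 cells it exceeded it by 1.82-fold to 2.16-fold in all 4 libraries. These sums and ratios carry no test, and fewer cells of a kind and less RNA per cell cannot be told apart in bulk RNA.

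**Figure D4:**
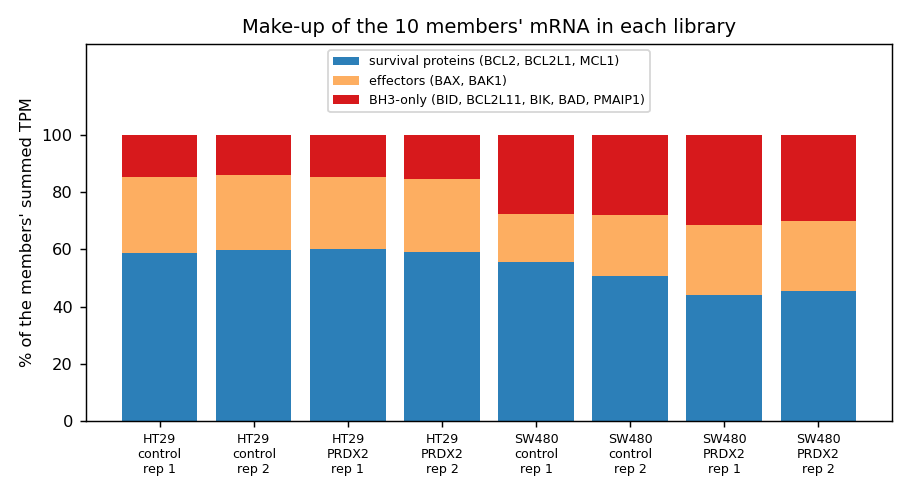
Share (%) of the members' summed TPM held by survival genes, effectors and BH3-only genes in each of the 8 libraries. The survival share lies between 58.9% and 60.1% in HT29 cells, and at 55.6% and 50.7% in SW480 controls against 43.9% and 45.5% after PRDX2 siRNA.

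The wider apoptosis pathway was read from 6 lists with 63 genes. In HT29 cells 13 of 59 tested genes changed, 9 higher and 4 lower (22%, against 17.6% of all genes), and in SW480 cells 5 of 57, 3 higher and 2 lower (8.77%, against 3.30%). DESeq2 called 8 of the list genes in HT29 cells, against 6.72% of all genes tested, and 6 in SW480 cells, against 4.86%. The SW480 calls of the lists were lost without either PRDX2 siRNA library. More genes passed without either SW480 control library, both on the lists and among all genes tested.

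Among the regulators of the members, 5 of 15 rose in HT29 cells and 1 of 15 in SW480 cells. Over all genes tested, 7.76% and 1.22% were called higher. DDIT3, encoding the stress factor CHOP, was at 57.2 and 53.7 CPM under control siRNA and 80.6 and 79.0 CPM after depletion in HT29 cells. In SW480 cells it was at 24.2 and 21.0 against 36.9 and 38.2 CPM. The depleted libraries lay above the controls in both lines, and its log2 change was 0.52 in HT29 cells (SE 0.06, adjusted p = 5.61e-06) and 0.73 in SW480 cells (SE 0.14, adjusted p = 0.0300). ATF4, the translationally controlled factor upstream of DDIT3, rose in HT29 cells from 448 and 437 to 511 and 526 CPM (log2 change 0.22, SE 0.03, adjusted p = 1.92e-05). In SW480 cells ATF4 was at 235 and 211 CPM under control siRNA and 227 and 219.6 CPM after depletion, overlapping. The other called regulators in HT29 cells were FOXO3 (0.35), E2F1 (0.30) and HUWE1 (0.21), which encodes a ubiquitin ligase of MCL1. In SW480 cells FOXO3 gave 0.44 (adjusted p = 0.0625), E2F1 0.25 (adjusted p = 0.301) and HUWE1 0.34 (adjusted p = 0.166), without a call. None of these genes passed the test of a difference between the lines.

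PMAIP1 is a known target of ATF4, so the 250 bases before its start are shown, from RefSeq on GRCh38.p14, chr18:59899746-59899995 on the plus strand. The capitals mark the pentamer TGACG of the cyclic AMP response element, found on either strand and here as CGTCA at -55 to -51 from the start.
PMAIP1 promoter: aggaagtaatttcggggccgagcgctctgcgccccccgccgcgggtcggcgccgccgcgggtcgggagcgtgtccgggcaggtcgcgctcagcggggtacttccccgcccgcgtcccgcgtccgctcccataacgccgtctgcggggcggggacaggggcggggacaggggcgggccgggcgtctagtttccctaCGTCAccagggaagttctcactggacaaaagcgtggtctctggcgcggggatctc
The pentamer occurs in 21.2% of the 35116 promoters searched, and in 6 of the 14 promoters of the 8 members found among them. Besides PMAIP1, the members with a match in a promoter are BAD, BAX, BCL2 and BCL2L1. The amino acid response core TGATGNAA, held by 3.14% of promoters, and the full element TGACGTCA, held by 1.65%, were in no member promoter. A match here describes the letters and shows no binding.

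Of the death receptors and adaptors, 4 of 10 changed in HT29 cells, 3 of them higher, and 2 of 10 rose in SW480 cells. Of all genes tested, 17.6% changed in HT29 cells, 7.76% higher, and 1.22% rose in SW480 cells. DESeq2 called 1 of the list in HT29 cells, TNFRSF10B, against 6.72% of all genes tested. TNFRSF10B, encoding the TRAIL receptor DR5, was at 92.1 and 93.1 CPM under control siRNA and 112 and 114 CPM after depletion in HT29 cells. In SW480 cells it was at 115 and 117 against 204 and 194 CPM. The depleted libraries were clear of the controls in both lines, with log2 changes of 0.29 (SE 0.05, adjusted p = 0.000460) and 0.78 (SE 0.10, adjusted p = 0.00935). The effect was smaller in HT29 cells, with a difference of -0.49 (SE 0.10, adjusted p = 0.0459). By edgeR TNFRSF10B alone passed among 59 pathway genes tested for such a difference (1.69%, against 1.12% of all genes tested). For the difference DESeq2 called 2 genes of the death receptor list, and 2.11% of all genes tested. TNFSF10, encoding the ligand TRAIL, rose in SW480 cells from 24.5 and 20.8 to 37.6 and 33.7 CPM (log2 change 0.65, adjusted p = 0.0470). It did not pass without a filter on low counts (adjusted p = 0.0556) or with limma on log2(TPM + 1) (adjusted p = 0.0594). TNFRSF1A, a TNF receptor, rose in HT29 cells by 0.21 (adjusted p = 0.00811), from 81.0 and 82.4 to 94.4 and 94.5 CPM. TRAF2 (0.22) rose and FADD (-0.23), the adaptor that recruits caspase 8, fell there.

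Of the rest of the BCL2 family, 1 of 10 tested genes rose in HT29 cells and 1 of 9 fell in SW480 cells. Of all genes tested, 7.76% rose in HT29 cells and 2.08% fell in SW480 cells. BMF, a BH3-only gene of detached epithelial cells, was at 36.1 and 34.4 CPM under control siRNA and 58.9 and 54.3 CPM after depletion in HT29 cells (log2 change 0.68, SE 0.07, adjusted p = 2.29e-06). In SW480 cells BMF was at 21.4 and 22.5 against 29.2 and 31.0 CPM, without overlap. Its log2 change there was 0.45 (adjusted p = 0.0996), and the difference between the lines did not pass (0.23, adjusted p = 0.389). BNIP3L, a mitophagy receptor, fell in SW480 cells from 156 and 126 to 91.3 and 94.1 CPM (log2 change -0.61, adjusted p = 0.0395). With a GC offset the change was -0.37 and still passed, and with limma on log2(TPM + 1) it did not pass (adjusted p = 0.0935). BBC3, encoding PUMA, gave 0.22 in HT29 cells (adjusted p = 0.0510) and 0.51 in SW480 cells (adjusted p = 0.118) and did not pass. Of the mitochondrial and apoptosome list 1 of 11 genes changed in HT29 cells, and of the other caspases 1 of 6. These shares were 9.09% and 16.7%, against 17.6% of all genes tested. In SW480 cells edgeR and DESeq2 both called 0 of either list, with 1 gene of each at an unadjusted p under 0.05. CYCS, encoding cytochrome c, fell from 143 and 139 to 123 and 126 CPM (log2 change -0.18, adjusted p = 0.0108), and CASP2 fell from 131 and 128 to 109 and 115 CPM (-0.21, adjusted p = 0.00554). Both lost their call with DESeq2 and without the first PRDX2 siRNA library. Of the inhibitor of apoptosis genes, BIRC5, encoding survivin, fell in HT29 cells from 126 and 113 to 94.5 and 96.2 CPM (log2 change -0.33, adjusted p = 0.000407). The study showed BIRC5 from these samples, so it is no independent evidence of direction. BIRC3 was the inhibitor that fell in SW480 cells, from 430 and 341 to 217 and 217 CPM (log2 change -0.83, SE 0.13, adjusted p = 0.0140), or by -0.56 with a GC offset, and it did not pass with limma on log2(TPM + 1) (adjusted p = 0.0505).

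**Figure D5:**
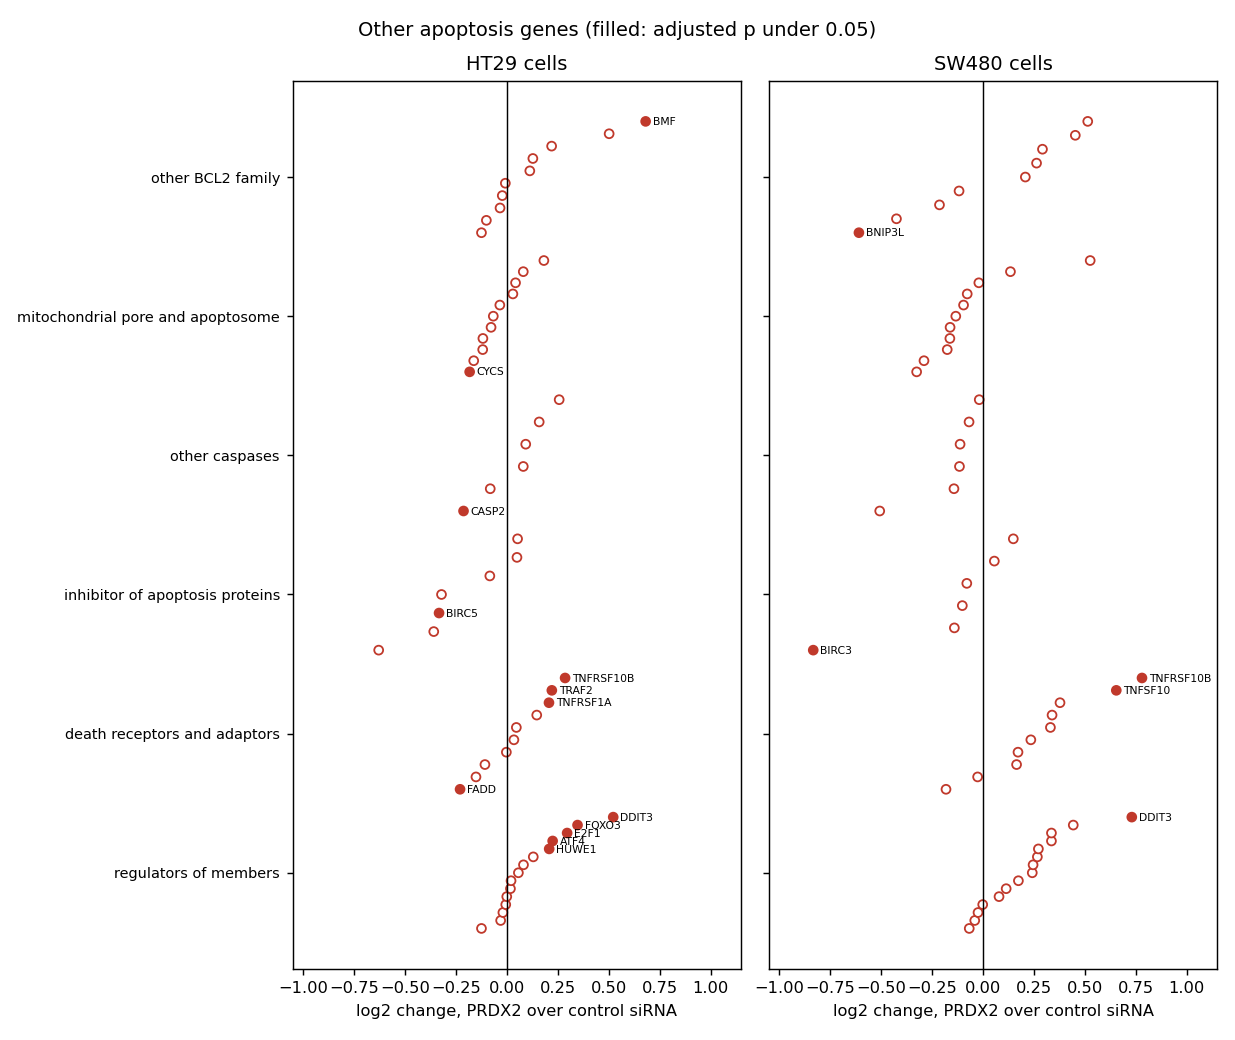
Log2 change (PRDX2 siRNA over control siRNA) of the tested genes of each of 6 apoptosis lists in HT29 cells (left) and SW480 cells (right), 1 circle a gene, filled and named where the adjusted p was under 0.05. There are 13 filled circles in HT29 cells and 5 in SW480 cells, and DDIT3 and TNFRSF10B are filled in both.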

How the data were processed

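The authors aligned paired-end reads of an unstranded TruSeq v2 library to hg19 with MapSplice, and for each of 25192 genes they deposited the expected count and the TPM estimated by RSEM, with a mean transcript length; the read processing is described for HT29 cells. The deposited FPKM values were not used. The HT29 libraries sum to between 9433463 and 10164137 expected counts. That is far below the number of reads the paper gives for its HT29 samples, and the reason is not known. The expected counts were rounded and tested with edgeR 4.0.16 (glmQLFit, glmQLFTest, TMM, at least 10 counts in at least 2 libraries, Benjamini-Hochberg adjustment over all genes tested, threshold 0.05), in each line separately, in 1 fit of all 8 libraries for the difference, and in the 4 control libraries between lines. CPM values use TMM factors over all 8 libraries. The members and lists were chosen with earlier results of these data known. Named genes are all members, PRDX2, and from each list in each line up to 2 genes with the smallest p among those called. Other genes named (FOXO3, E2F1, HUWE1, TRAF2, FADD, BBC3) were chosen after their values were seen. Alternatives used DESeq2 1.42.0, limma 3.58.1 on the TPM values as log2 with a pseudocount of 1 or 0.1, other scaling and filters, a replicate block, a GC offset (loess, span 0.5, GC for 81.6% of symbols), and libraries left out. Scripts were tested on simulated counts. Gene positions and coding sequence come from GENCODE on GRCh37, the assembly of hg19.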

Additional observations from a re-analysis of the deposited data

Results flagged for a closer look

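The effect of PRDX2 siRNA differed between the lines for 2 of the genes reported, by the test of the difference itself in the fit of all 8 libraries. Of all 14772 genes tested 1.12% passed it, and of the pathway genes 1.69%. For TNFRSF10B the log2 change in HT29 cells minus that in SW480 cells was -0.49 (SE 0.10, edgeR adjusted p = 0.0459). It lay between -0.54 and -0.45 in 16 alternatives and passed in 8 of them. For PRDX2, the targeted gene, the difference was 0.84 (SE 0.12, adjusted p = 0.0128), so that the knockdown itself was weaker in HT29 cells. It lay between 0.70 and 1.02 and passed in 10 of 16 alternatives. The part of the unequal knockdown in the difference of TNFRSF10B was not tested.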

How the results depend on the processing

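Of 762 recomputed gene values, 627 kept their direction and their side of the threshold, 30 passed newly, 65 no longer passed and 40 turned direction. In HT29 cells the 2 members called became 1 with DESeq2, 0 with all 8 libraries fitted together, and 1 to 3 with a library left out, the single call coming without the siPrdx2 library of replicate 2. The 13 pathway genes became 8 with DESeq2 and 2 with all 8 libraries. In SW480 cells the 1 member called became 0 with limma on log2(TPM + 1) and on log2(TPM + 0.1), 2 with a GC offset, and 2 with a GC offset and replicate block. Leaving out a library left 1 library alone in its group, so that the other pair set the spread. The members called then moved widely, as did the genes called in general, and their number is not read as a result. The 5 SW480 pathway genes became 2 with limma at either pseudocount, 9 with the replicate block, 12 with the GC offset and 14 with both. With all 8 libraries they became 13, and with a library left out their number moved with that of all genes called. For the difference between lines, DESeq2, the replicate block, the GC offset and the GC offset with the replicate block each called 1 member, BCL2L1, and leaving out a library gave 0 to 4, the calls coming without an SW480 control library.

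Same-numbered deviations correlated at 0.103 in HT29 cells and 0.115 in SW480 cells. With only 2 pairs a line, and no source that says what a number marks, whether the numbers pair the libraries is not known. With the replicate block BCL2L1 passed in HT29 cells (adjusted p = 0.0391), and the count over all genes went from 466 to 1727 in SW480 cells. Over all genes DESeq2 called 871 in HT29 cells in place of 2279, and all 8 libraries fitted together 185. In SW480 cells the GC offset called 2517, with the block 3065, all 8 libraries 2415, limma 214 and 177, and leaving out a library 87 to 7364. In the difference between lines 166 genes became 267 without a filter, 311 with DESeq2, 349 with the replicate block, 1042 with the GC offset, 1073 with both, 103 and 43 with limma, and 6 to 5237 with a library left out.

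The members that turned direction had not passed in the comparison concerned. With limma at the lower and higher pseudocount alike, BAX in HT29 cells was 0.051, MCL1 in SW480 cells 0.072 and BCL2L1 between control lines 0.009, and BCL2 in SW480 cells was 0.52 at a pseudocount of 1 and 0.88 at 0.1. With the GC offset, and with the GC offset and replicate block, BAX in HT29 cells was 0.036 and 0.036, MCL1 in SW480 cells 0.081 and 0.083, BAD in SW480 cells -0.18 and -0.19, PMAIP1 in SW480 cells 0.092 and 0.093, the difference of BAD 0.31 and 0.32, and BCL2L1 between control lines 0.021 and 0.017. MCL1 in SW480 cells was 0.001 with the replicate block alone. With a library left out, log2 changes in HT29 cells ranged from -0.028 to 0.02 for BAX, -0.072 to 0.12 for BAK1, -0.024 to 0.065 for BID, -0.16 to 0.057 for BCL2L11 and -0.006 to 0.21 for BAD. In SW480 cells they ranged from -0.40 to 0.18 for BCL2, -0.16 to 0.16 for MCL1, -0.011 to 0.18 for BID, -0.041 to 0.35 for BAD and -0.35 to 0.034 for PMAIP1. For the difference they ranged from -0.18 to 0.031 for BID and -0.27 to 0.14 for BAD. The cause was not tested. Where a library was left out, the lone sample was assumed to vary like the other groups. Depth limits BCL2 in both lines and BIK in HT29 cells.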
